A study of Mus musculus with 18 samples.

Results

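Interferon-stimulated genes were followed in kidney RNA of 18 mice, 1 library per mouse, as a list of 47 genes among the 78239 genes that were counted. The list was chosen on these same libraries, from differences between the 4 groups and above all between single female libraries, so the spread between females is given below as a description without a test. All 47 genes were found in the counts under 1 gene identifier each. The mice were wild-type offspring of the outbred CD-1 stock, collected at 6 wk of age. Dams of the low protein (LP) group received a diet with 8% protein through gestation and lactation, dams of the normal protein (NP) group a diet with 18% protein, and every pup was moved to the 18% diet at weaning in postnatal week 3. The groups held 10 males, 5 of each diet, and 8 females, 5 LP and 3 NP. All mice, controls included, had been given horse spleen cationic ferritin in 2 injections for kidney imaging, and RNA came from a piece of the left kidney according to the extraction notes, while the design text of the series speaks of a whole kidney. Male kidneys were collected 90 min and female kidneys 24 h after the last injection, so sex and the time since the injection cannot be told apart. The reads counted on genes numbered 14050486 in the smallest library and 23562411 in the largest. Nothing in the labels ties pups to litters, so p-values measure the spread between these mice.

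Interferons are secreted proteins that cells release when they sense viral or damaged nucleic acids. Type I interferons act through the receptor pair IFNAR1 and IFNAR2, and type II interferon acts through IFNGR1 and IFNGR2. Both receptors work through Janus kinases that phosphorylate STAT proteins, and the DNA elements bound downstream are the interferon-stimulated response element and the gamma-activated site. The genes switched on this way code for proteins that block viral RNA, degrade it, present peptides, attract lymphocytes, or feed back on the pathway. In the kidney, both tubular epithelium and resident or infiltrating immune cells can express them. In a library made from a piece of tissue, fewer cells of a type and less RNA per cell cannot be told apart.

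The promoters of these genes were read as a description. The list is made of interferon-stimulated genes, so response elements shared by them are no independent support for the list. RefSeq start windows, from 250 bases before to 50 bases after the start of transcription, were held for 35 of the 47 genes (RefSeq table of build GRCm38.p6), and each of the 40 windows of these genes matched the GRCm39 genome exactly once. A tandem repeat, GAAA followed by 2 bases of any kind and GAAA again, which is a core of the interferon-stimulated response element, was searched on both strands. It stood in the windows of 19 of 35 genes, 54.3%, against 3.99% of 27025 gene symbols in the whole table. A longer form, AGTTTC followed by 2 bases of any kind and TTTC, which contains the reverse complement of that repeat, stood in 13 of 35 genes against 0.303% of symbols. The run of 3 GAAA units, each 2 bases from the next and so containing the tandem repeat, stood in 6 of 35 genes against 0.133% of symbols. For the gamma-activated site the loose form TTCNNNGAA was used, and 9 of 35 genes held it, 25.7%, against 9.55% of symbols. A match is a description of letters and not evidence of binding, and 12 genes were without an entry.

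Stretches of 10 promoters are shown because they carry these repeats in genes described below. They are written 5′ to 3′ on the strand of the gene, with GRCm39 coordinates from the exact match, and capitals mark the tandem GAAA repeat or its reverse complement, or in *Irf1* the form TTCNNNGAA.
*Ifit1*, whole window, chr19:34618039-34618338, plus strand: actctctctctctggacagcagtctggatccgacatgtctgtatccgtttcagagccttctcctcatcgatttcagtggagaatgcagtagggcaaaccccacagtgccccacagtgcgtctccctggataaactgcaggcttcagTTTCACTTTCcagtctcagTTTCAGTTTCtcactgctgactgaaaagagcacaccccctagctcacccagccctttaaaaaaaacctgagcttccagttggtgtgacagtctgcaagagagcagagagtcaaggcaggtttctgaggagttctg
*Ifit3*, chr19:34560758-34560831, plus strand: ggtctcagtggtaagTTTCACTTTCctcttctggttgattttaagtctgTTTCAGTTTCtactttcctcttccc
*Isg15*, chr4:156285317-156285368, minus strand: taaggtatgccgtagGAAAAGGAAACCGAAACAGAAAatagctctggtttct
*Rsad2*, chr12:26506547-26506586, minus strand: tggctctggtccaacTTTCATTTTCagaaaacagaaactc
*Oas1a*, chr5:121045578-121045623, minus strand: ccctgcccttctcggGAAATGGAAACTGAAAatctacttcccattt
*Cxcl10*, whole window, chr5:92496699-92496998, minus strand: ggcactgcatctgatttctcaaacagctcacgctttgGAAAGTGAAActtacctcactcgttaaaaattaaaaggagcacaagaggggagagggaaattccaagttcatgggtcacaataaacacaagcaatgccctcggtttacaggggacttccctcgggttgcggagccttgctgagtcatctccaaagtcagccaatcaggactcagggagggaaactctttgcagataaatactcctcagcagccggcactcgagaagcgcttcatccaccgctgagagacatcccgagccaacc
*Gbp3*, chr3:142265745-142265790, plus strand: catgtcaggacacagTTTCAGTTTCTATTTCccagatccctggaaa
*Irgm1*, chr11:48762247-48762292, minus strand: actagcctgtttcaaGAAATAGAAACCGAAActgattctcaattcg
*Gbp5*, chr3:142202515-142202554, plus strand: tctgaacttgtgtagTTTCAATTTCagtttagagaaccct
*Irf1*, chr11:53660736-53660774, plus strand: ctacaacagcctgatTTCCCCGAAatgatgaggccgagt
The *Ifit1* window held the repeat at 104 and 85 bases before the start, and *Ifit3* held it at 156 and 122 bases before the start. In *Cxcl10* it lay at 213 bases before the start. In *Isg15* 3 overlapping matches began at 78, 72, and 66 bases before the start.

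The clearest feature of the list was its spread between females. LP female 1, LP female 2, and NP female 3 lay below each of the other 5 females for 44 of the 47 genes. The same order was met by 12.4% of the 15678 genes with a mean of at least 10 counts, a value that the choice of the list makes uninformative about its members. The exceptions were *Psmb8*, *Gbp6*, and *Ifi27*, and *Ifi27* was above the other 5 females in all 3 libraries, an order met by 11% of all genes. In 42 of 47 genes the 3 libraries were also below all 10 males. The share of all genes with that order was not computed, so this count and those by role below are descriptions only. The same 3 libraries formed the smaller branch at the first split when all 18 were clustered on 12557 genes that left out this list and the other interferon and glucocorticoid-induced genes. They come from both diets, so their place is not a diet comparison, and no average over them is given.

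**Figure D1:**
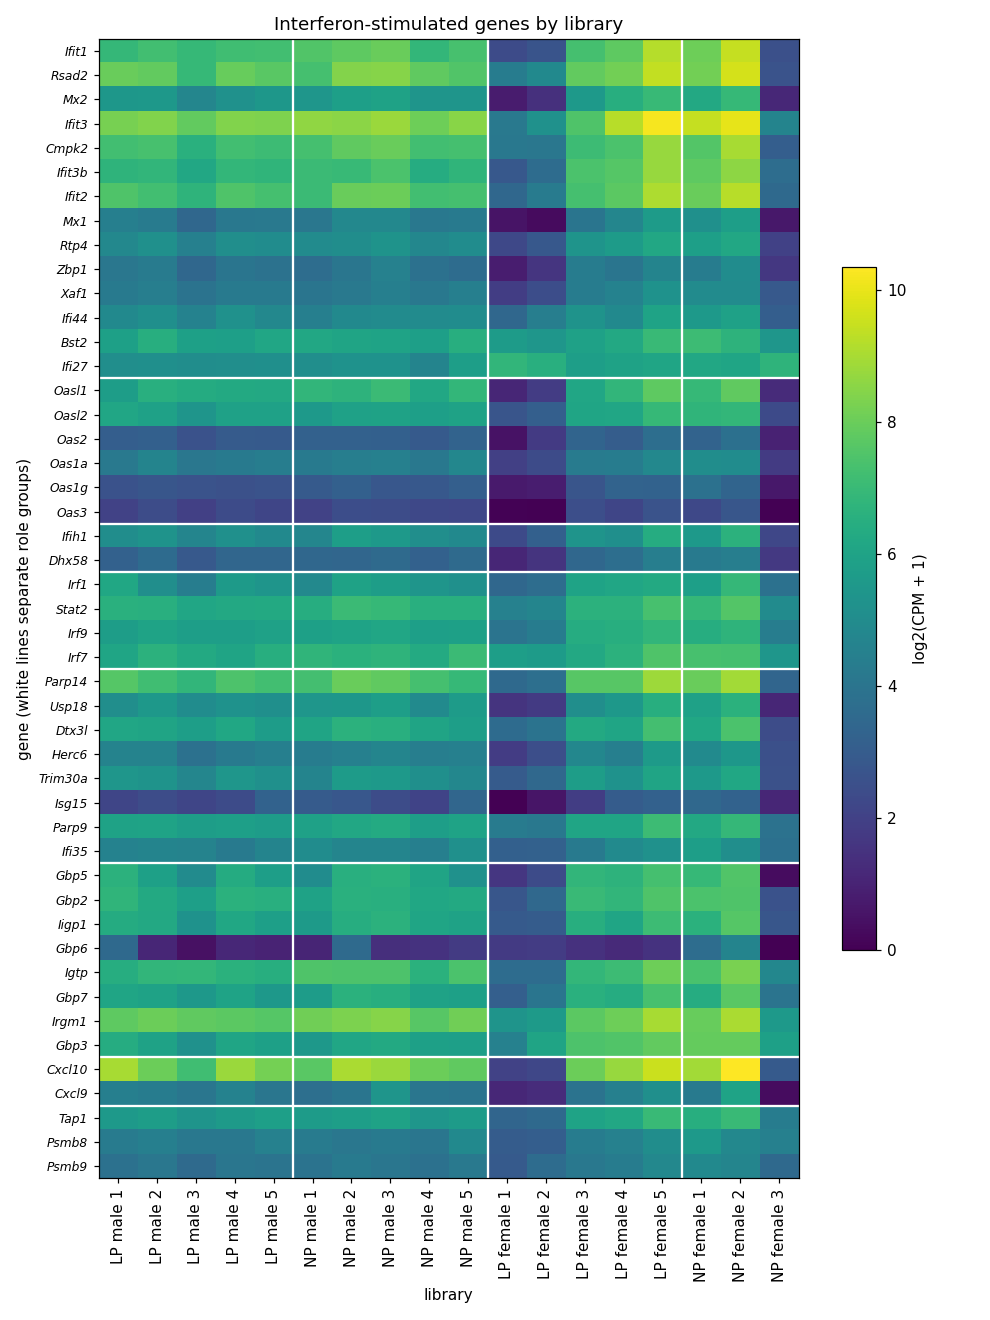
Expression of the 47 genes (rows, by role) in each of the 18 libraries (columns), as log2(CPM + 1), where CPM is counts per 1000000 reads after scaling by the trimmed mean of M values. LP female 1, LP female 2, and NP female 3 are dark in 44 of 47 rows when set beside the other 5 females, *Ifi27* is brightest there, and *Gbp6* follows another order.

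The range between the highest and lowest female, on the log2(CPM + 1) scale, had a median of 4.18 over the list and of 0.94 over the 15678 genes. Between males the medians were 1.00 for the list and 0.75 for all genes. Without the 3 low libraries, the other 5 females had a median range of 1.24 for the list and 0.59 for all genes. Of the 47 genes, 46 had a wider range among the 8 females than among the 10 males, which was so for 70.0% of all genes. NP female 2 was the highest of all 18 libraries for 25 genes, LP female 5 for 13, and NP female 1 for 8. LP female 1 was the lowest of the 8 females for 24 genes and NP female 3 for 19. Among males, NP male 3 was highest for 20 genes and LP male 3 lowest for 28.

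**Figure D2:**
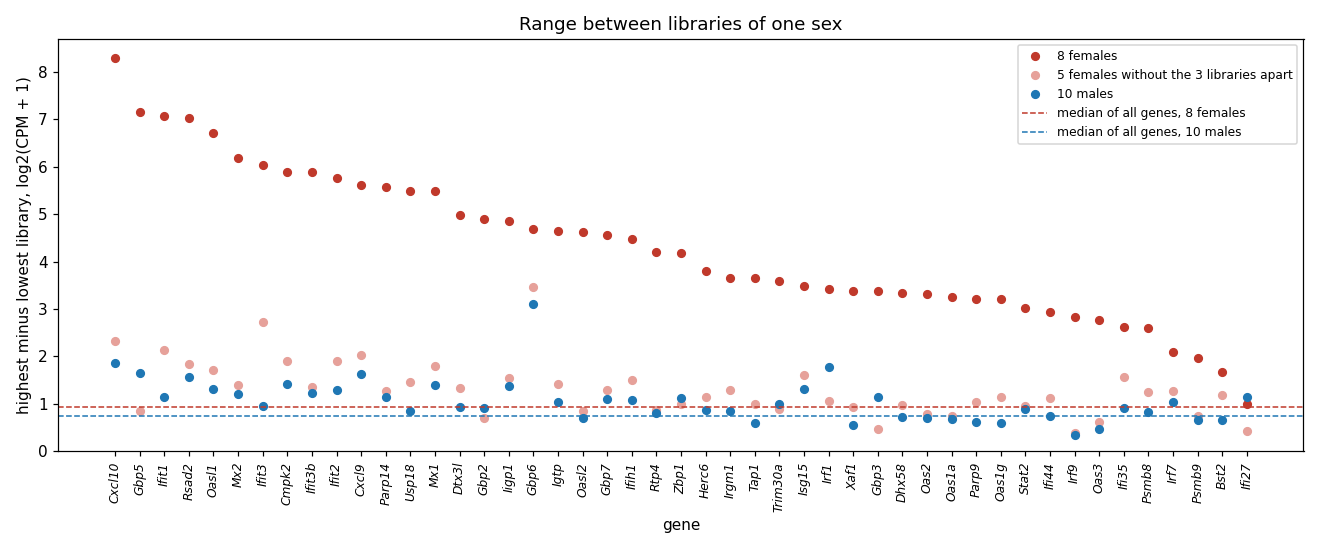
Range between the highest and the lowest library for each gene, as a difference of log2(CPM + 1), in the 8 females, in the 5 females other than LP female 1, LP female 2, and NP female 3, and in the 10 males; dashed lines give the medians over all genes with a mean of at least 10 counts. The female range falls from 8.30 for *Cxcl10* to 1.00 for *Ifi27*, and the ranges of the 5 remaining females are above those of the males for 40 of 47 genes.

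By role, the chemokines had the largest median female range, 6.96 on the log2 scale over 2 genes, followed by the antiviral effectors with 5.62 over 14 genes and the interferon-inducible GTPases with 4.66 over 8. The RNA sensors had a median of 3.90 over 2 genes, ISG15 with the ubiquitin and ADP-ribose enzymes 3.70 over 8, the OAS family 3.29 over 6, and the transcription factors 2.93 over 4. The antigen processing genes had the smallest median, 2.59 over 3 genes. Ranges of genes with few reads are understated by the constant added before the logarithm. Per kilobase of exon, the highest mean levels over all libraries were those of *Cxcl10*, at 160.4 CPM per kb, and *Ifit3*, at 137 CPM per kb, and the lowest was that of *Oas3*, at 0.472 CPM per kb.

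The antiviral effectors include the IFIT proteins, which bind viral RNA and hold back its translation. *Ifit1* (GRCm39 chr19:34618271-34632174) had the widest female range of this group, 7.06 on the log2 scale. It overlaps *Ifit1bl2* on the opposite strand over its whole length of 13904 bases, and the library was not strand-specific. LP males 1 to 5 held 117, 148, 121, 142, and 148 CPM of *Ifit1*, and NP males 1 to 5 held 184, 218, 255, 114, and 162 CPM. LP females 1 to 5 held 4.19, 5.53, 157, 217, and 587 CPM of *Ifit1*, and NP females 1 to 3 held 269, 691, and 4.76 CPM. NP female 2 was 165-fold above LP female 1, whereas the highest male was only 2.23-fold above the lowest. Every male thus lay between the 3 low females and the 2 highest ones.

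*Ifit3*, which partners IFIT1, had the highest mean CPM of the group. *Ifit3* was at 297, 337, 229, 329.8, and 322 CPM in LP males 1 to 5 and at 395, 376, 444, 263, and 366 CPM in NP males 1 to 5. Among females, it was at 16.97, 36.1, 177, 598, and 1181 CPM in LP females 1 to 5 and at 700.4, 988, and 24.4 CPM in NP females 1 to 3. LP female 5 was the highest library and LP female 1 the lowest, 69.6-fold apart. LP female 3 was below every male, so for this gene the low side of the females held 4 libraries. *Ifit3* and *Ifit3b* share sequence: 16.7% of the 100-base words in *Ifit3* transcripts also occur in *Ifit3b*, so reads from those stretches cannot be placed in either gene. The pair had nearly the same female fold, 69.6 and 68.4.

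The other antiviral effectors except *Ifi27* had the same 3 libraries lowest. *Rsad2*, which makes a chain-terminating nucleotide, spanned 5.33 to 820.4 CPM in females and 119.5 to 354 CPM in males. *Mx2*, a dynamin-like GTPase that traps viral particles, spanned 0.736 to 125 CPM in females and 26.02 to 61.8 CPM in males. *Bst2*, which tethers budding virions, had a narrow span of 41.8 to 135 CPM in females, 3.24-fold, but kept the 3 low libraries at the bottom. In 13 of these 14 genes those libraries were below the other 5 females and below all males.

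*Ifi27*, which codes for a small membrane protein of mitochondria, was the one antiviral effector with the opposite order. The levels of *Ifi27* in LP males 1 to 5 were 33.5, 34.2, 32.3, 33.2, and 34.4 CPM, and those in NP males 1 to 5 were 33.2, 37.7, 37.2, 24.1, and 54.2 CPM. The levels of *Ifi27* in LP females 1 to 5 were 110.1, 90.3, 54.6, 61.1, and 67.04 CPM, and those in NP females 1 to 3 were 73.3, 66.8, and 104 CPM. The 3 libraries lowest for the rest of the list were the 3 highest here, and all 8 females were above all 10 males. *Ifi27* overlaps *Ifi27l2a* on the opposite strand over 7825 bases, and the library was not strand-specific.

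**Figure D3:**
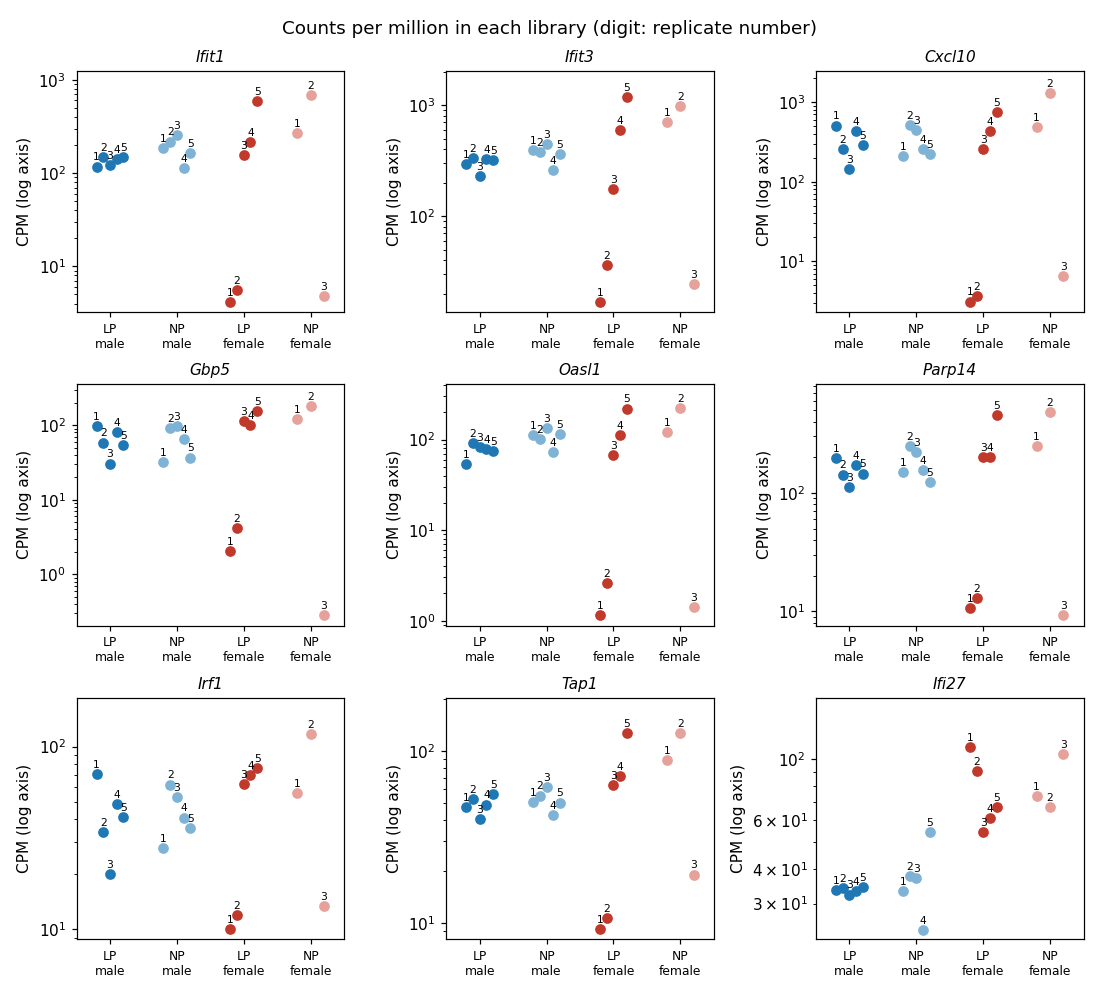
CPM (log axis) of 9 genes in each library, by group, with the replicate number beside each point. In 8 panels LP female 1, LP female 2, and NP female 3 sit below the other 5 females, *Ifit1* at 4.19 to 5.53 CPM against 157 to 691 CPM, while in the *Ifi27* panel they are the highest, at 90.3 to 110.1 CPM.

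The OAS family makes or resembles enzymes that build 2′-5′ oligoadenylates, the signal that switches on RNase L. *Oasl1* had both the highest mean and the widest range. *Oasl1* was at 53.02, 92.4, 82.2, 77.7, and 74.4 CPM in LP males 1 to 5 and at 111, 102, 133, 72.8, and 115 CPM in NP males 1 to 5. Among females, it was at 1.15, 2.62, 67.8, 112, and 219.6 CPM in LP females 1 to 5 and at 120.2, 224, and 1.42 CPM in NP females 1 to 3. The lowest and highest females were 194-fold apart, against 2.51-fold in males. *Oas3*, with low counts throughout, had 0 reads in LP female 2 and NP female 3 and reached 5.83 CPM in NP female 2. NP female 2 was at least 39.4-fold higher than LP female 2, with 3 counts as the floor in that library. *Oas1a* and *Oas1g* share 827 words of 100 bases, 31.8% of those in *Oas1g*, so their counts are uncertain one against the other.

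Among the RNA sensors, *Ifih1* codes for MDA5, which binds long double-stranded RNA in the cytoplasm. The levels of *Ifih1* in LP males 1 to 5 were 32.2, 39.1, 25.1, 35.6, and 29.4 CPM, and those in NP males 1 to 5 were 25.8, 53.9, 46.99, 33.2, and 29.4 CPM. The levels of *Ifih1* in LP females 1 to 5 were 4.05, 8.09, 40.1, 34.5, and 83.7 CPM, and those in NP females 1 to 3 were 45.6, 100.03, and 3.55 CPM. The 3 low libraries were at or under 8.09 CPM and no other library fell below 25.1 CPM. *Dhx58*, which codes for the regulatory helicase LGP2, spanned 1.15 to 20.6 CPM in females with the same 3 libraries lowest.

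Of the transcription factors, IRF9 and STAT2 belong to the complex that binds the response element, IRF7 amplifies type I interferon, and IRF1 is induced by type II interferon. *Irf1* had the widest female range of the group, 3.42 on the log2 scale. LP males 1 to 5 held 70.8, 34.00, 20.1, 48.6, and 41.02 CPM of *Irf1*, and NP males 1 to 5 held 28.00, 62.05, 53.1, 40.9, and 35.8 CPM. LP females 1 to 5 held 10.03, 12.04, 62.5, 69.6, and 76.6 CPM of *Irf1*, and NP females 1 to 3 held 55.5, 117, and 13.5 CPM. The 3 low libraries were at 10.03 to 13.5 CPM, below the lowest male at 20.1 CPM. *Irf1* also had the widest male range of these 4 genes, 3.53-fold from LP male 3 to LP male 1.

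*Irf7* had the highest mean of the group and a smaller spread. *Irf7* was at 66.97, 98.7, 76.4, 64.3, and 88.8 CPM in LP males 1 to 5 and at 107, 95.99, 106, 80.2, and 133 CPM in NP males 1 to 5. Among females, it was at 55.3, 50.4, 75.1, 99.5, and 181 CPM in LP females 1 to 5 and at 160.01, 157, and 42.1 CPM in NP females 1 to 3. The lowest and highest females were 4.31-fold apart. The 3 libraries were lowest here too, but LP female 1 came close to the lowest male, LP male 4. *Stat2* and *Irf9* spanned 8.50-fold and 7.50-fold in females, and 1.88-fold and 1.28-fold in males.

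ISG15 is a ubiquitin-like protein that HERC6 attaches to targets and USP18 removes, and PARP9, DTX3L, and PARP14 add or read ADP-ribose. *Parp14* had both the highest mean and the widest range. The levels of *Parp14* in LP males 1 to 5 were 198, 143, 111, 173, and 146 CPM, and those in NP males 1 to 5 were 151, 248, 222, 156, and 123 CPM. The levels of *Parp14* in LP females 1 to 5 were 10.7, 12.9, 202, 201, and 458 CPM, and those in NP females 1 to 3 were 251, 485, and 9.24 CPM. The 3 low libraries held 9.24 to 12.9 CPM, and the other 15 held 111 CPM or more. *Usp18*, which also blocks the type I receptor, spanned 1.14 to 95.6 CPM in females and 29.7 to 54.3 CPM in males. *Isg15* itself was low on this scale, with no read in LP female 1 and at most 10.2 CPM, reached in NP female 1. It overlaps *Gm46878* on the opposite strand over 726 bases, and the library was not strand-specific, so its counts are uncertain. All 8 genes of this group had the 3 libraries below the other 5 females and below all males. *Parp9* and *Dtx3l* are transcribed head to head and overlap by 682 bases.

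The interferon-inducible GTPases, GBP and IRG proteins, coat vacuoles that hold pathogens. *Irgm1*, which restrains the other IRG proteins, had the highest mean. LP males 1 to 5 held 218, 256, 225, 213, and 197 CPM of *Irgm1*, and NP males 1 to 5 held 271, 312, 354, 201, and 272 CPM. LP females 1 to 5 held 40.4, 48.1, 211, 264, and 505 CPM of *Irgm1*, and NP females 1 to 3 held 247, 521, and 47.6 CPM. The 3 low libraries held 40.4 to 48.1 CPM, and the lowest and highest females were 12.9-fold apart, against 1.80-fold in males.

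*Gbp5*, which promotes inflammasome assembly, had the widest range of the GTPases. The levels of *Gbp5* in LP males 1 to 5 were 97.9, 58.4, 30.5, 80.4, and 54.7 CPM, and those in NP males 1 to 5 were 31.98, 92.4, 97.6, 64.6, and 36.8 CPM. The levels of *Gbp5* in LP females 1 to 5 were 2.07, 4.19, 112, 101, and 155 CPM, and those in NP females 1 to 3 were 120.2, 182, and 0.284 CPM. NP female 3 held 4 reads, so its level carries a wide counting error, and NP female 2 was 642-fold above it. The 5 other females were within 1.81-fold of each other.

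In *Gbp3* the sexes lay far apart outside the 3 libraries, with females high and males low. The 5 other females were above every male in *Gbp5* and *Gbp2* too, but by a narrow margin. Their lowest value was 101 CPM against a highest male of 97.9 CPM in *Gbp5*, and 112 against 108 CPM in *Gbp2*. *Gbp3* was at 83.2, 60.9, 36.9, 66.2, and 57.2 CPM in LP males 1 to 5 and at 45.2, 68.4, 76.4, 57.1, and 55.9 CPM in NP males 1 to 5. Among females, it was at 22.3, 65.1, 174, 184, and 233 CPM in LP females 1 to 5 and at 240.1, 239.8, and 57.1 CPM in NP females 1 to 3. The 5 other females lay at 174 to 240.1 CPM, above every male, and LP female 2 and NP female 3 lay inside the range of the males. *Gbp6* followed neither order. Its lowest library was NP female 3 with 0 reads, and the 4 libraries above 10 CPM were LP male 1 at 10.6, NP male 2 at 10.8, NP female 1 at 12.1, and NP female 2 at 24.6 CPM. Of the 100-base words in *Gbp6* transcripts, 41.1% also occur in *Gbp10* and 47.5% in the overlapping gene *Gm43302*, so its counts are uncertain.

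The chemokines CXCL9 and CXCL10 draw T cells through the receptor CXCR3. *Cxcl10* (GRCm39 chr5:92494497-92496748) had the widest female range of the whole list, 8.30 on the log2 scale. The levels of *Cxcl10* in LP males 1 to 5 were 505, 257, 142, 436, and 287 CPM, and those in NP males 1 to 5 were 209.6, 517, 441, 255, and 224 CPM. The levels of *Cxcl10* in LP females 1 to 5 were 3.13, 3.65, 259.7, 433, and 737 CPM, and those in NP females 1 to 3 were 485, 1300.0, and 6.61 CPM. NP female 2 was 416-fold above LP female 1, and the highest male was 3.63-fold above the lowest. *Cxcl10* lies within *Art3* on the opposite strand over its whole length of 2252 bases. *Cxcl9* spanned 0.284 to 62.4 CPM in females and 12.7 to 41.5 CPM in males.

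The antigen processing genes code for immunoproteasome subunits (*Psmb8*, *Psmb9*) and for a chain of the transporter that carries peptides to MHC class I (*Tap1*). *Tap1* had the highest mean and the widest range. *Tap1* was at 47.4, 52.7, 40.2, 48.8, and 56.5 CPM in LP males 1 to 5 and at 50.7, 55.1, 61.5, 42.6, and 50.2 CPM in NP males 1 to 5. Among females, it was at 9.24, 10.7, 63.7, 71.8, and 127 CPM in LP females 1 to 5 and at 88.4, 127, and 19.2 CPM in NP females 1 to 3. All 3 low libraries stayed below the lowest male. For *Psmb8*, NP female 3 at 22.0 CPM was above LP female 3 at 19.4 CPM and above 8 of 10 males, so only LP female 1 and LP female 2 were low.

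Maternal diet was compared next, within each sex. The list was chosen with differences between the 4 groups known. Counts in the diet and sex comparisons are therefore a description beside the shares of all genes. In males, no gene of the list was called by edgeR's quasi-likelihood test at an adjusted p under 0.05 and a 1.5-fold change, out of 46 tested, and 0.0379% of all 13181 genes were called. DESeq2 and limma-voom also called none of the 46. At an unadjusted p under 0.05 there were 8 of 46 genes, against 502 of 13181, namely *Igtp*, *Oasl1*, *Ifit1*, *Cmpk2*, *Oas1g*, *Irf7*, *Stat2*, and *Irgm1*, with log2 fold changes from −0.67 to −0.34. This number was not stable: it was 4 without NP male 2, 5 without LP male 3 or without NP male 3, 13 without NP male 4, 5 by limma-voom, and 0 of 39 genes with all 4 groups in 1 model. The log2 fold change from NP to LP was negative in 41 of 46 genes and in 51.1% of all genes, with a median of −0.18 for the list and of −0.0036 for all. *Igtp*, an IRG protein, had the smallest adjusted p, 0.827, with a log2 fold change of −0.67 ± 0.16 (SE, n = 5 and 5 mice). This gene overlaps *Irgm2* on the same strand over 7974 bases, so its counts are uncertain. *Igtp* was at 87.2, 112, 114, 95.9, and 87.9 CPM in LP males 1 to 5 and at 179, 172, 174, 95.8, and 172 CPM in NP males 1 to 5. The LP males lay between 87.2 and 114 CPM and the NP males between 171.5 and 179 CPM, apart from NP male 4, which lay inside the LP range. Without NP male 4 *Igtp* was called, with −0.80 ± 0.10 and an adjusted p of 0.0285.

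Single levels in males overlapped between diets for nearly all genes. Complete separation with LP below NP was seen for 1 of 46 genes, *Oas1g* (4.95 to 5.83 against 5.98 to 7.94 CPM), a separation met by 0.448% of all genes. The reverse separation was met by 0 of 46 genes and by 0.228% of all genes. An exact two-sided permutation test gave p under 0.05 for 3 of 46 genes and for 3.81% of all genes. These were *Oas1g* (exact p = 0.00794, the smallest that 5 against 5 allows), *Igtp* (exact p = 0.0317), and *Oasl1* (exact p = 0.0476).

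In females, no gene of the list was called by the same edgeR test among 39 tested, and 0% of 13510 genes were called, with 0 of 39 also at an unadjusted p under 0.05. DESeq2 and limma-voom called none of the 39. The other 8 genes, *Cxcl9*, *Gbp5*, *Gbp6*, *Isg15*, *Mx1*, *Oas1g*, *Oas2*, and *Oas3*, had fewer than 10 counts in a female library and were not tested. All 39 log2 fold changes from edgeR were negative, as were 51.9% of those of all genes, and the median was −0.47 beside −0.01. By limma-voom, which was run with a weight for each library, 9 of the 39 were positive and the median was −0.19. Their standard errors were wide, with a median of 0.97, and 2 of the 3 low libraries are LP and 1 is NP. *Cxcl10* had the lowest value, −1.06 ± 1.62, and *Ifi27* the value nearest to 0, −0.08 ± 0.25 (SE, n = 5 and 3 mice). Leaving out single females moved the median between −1.01, without NP female 3, and 0.24, without NP female 2. It was −0.96 without LP female 5, −0.19 without LP female 1, and −0.20 without LP female 2.

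No gene of the list separated LP from NP females. The LP females were all below the NP females for 0 of 39 genes, against 1.26% of all genes, and all above for 0 of 39, against 1.64%. The exact permutation test gave no p under 0.05 for the 39 genes and gave one for 3.85% of all genes, and 5 against 3 mice cannot reach a p below 0.0179. With the 3 low libraries left out, all 47 genes were tested, none was called, all log2 fold changes stayed negative, and their median was −0.36. In that fit 1 of all 14183 genes was called, and the median over all genes was −0.0076. The share of negative values over all genes was not computed for it. The difference between the sexes in the diet effect was called for 0 of 39 genes by edgeR, DESeq2, or limma-voom, and for 0.0158% of 12665 genes. At an unadjusted p under 0.05 edgeR gave 0 of 39 and limma-voom gave 1.

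**Figure D4:**
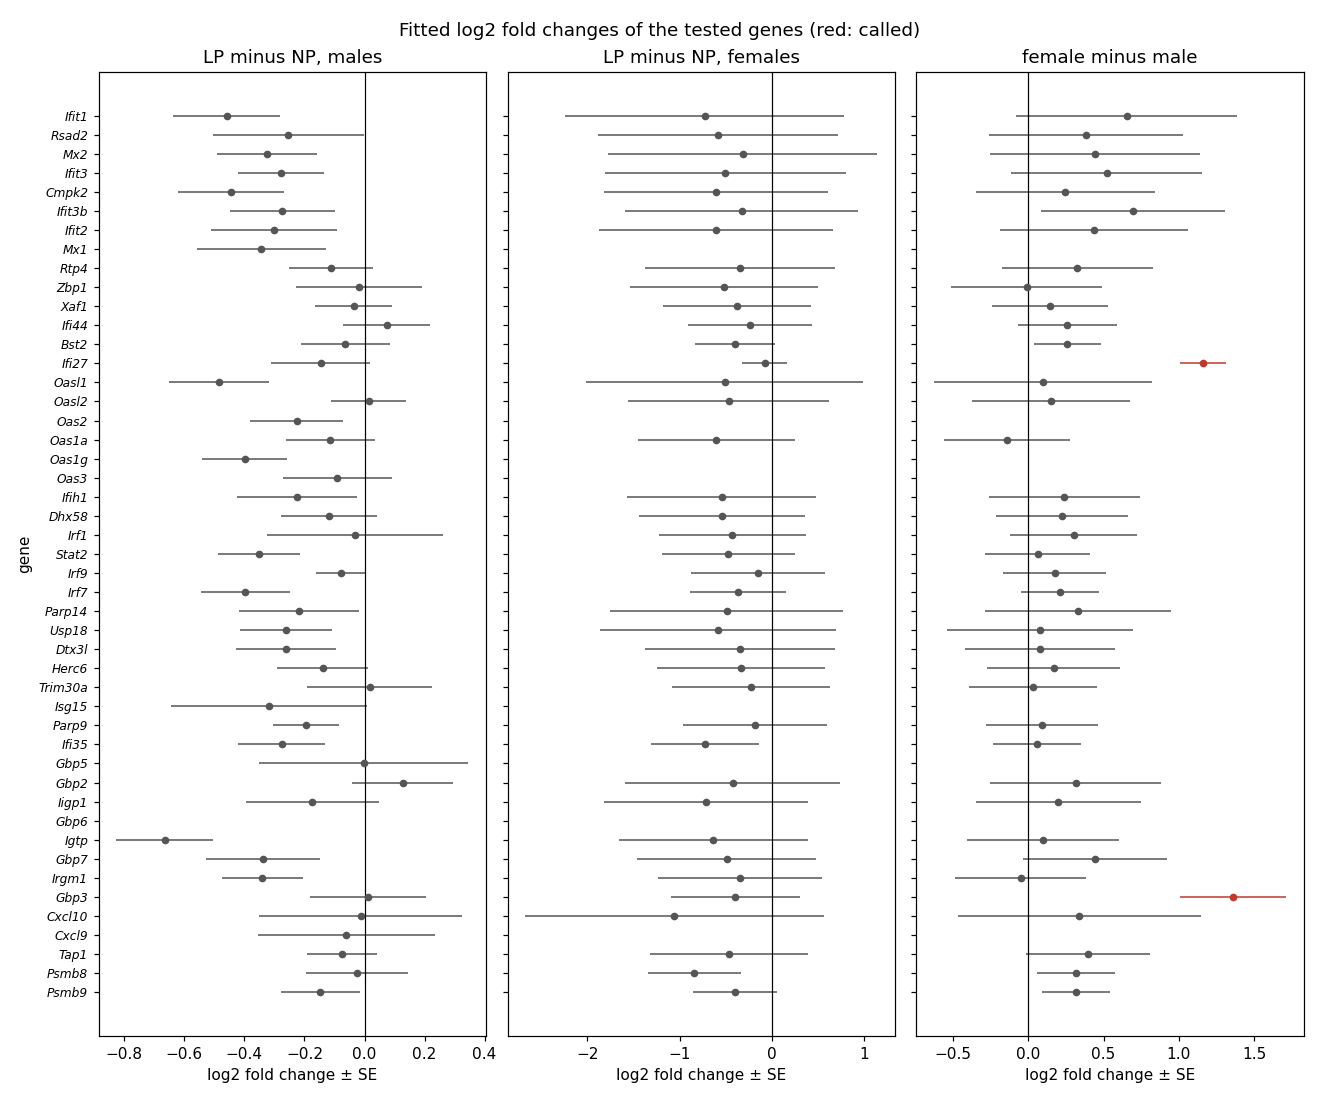
Log2 fold changes with standard errors from edgeR for the genes tested, LP minus NP in males, LP minus NP in females, and female minus male over both diets, on horizontal axes of different length. Genes without a point were under the count minimum; 41 of 46 male values and all 39 female values for diet lie below 0, with wider errors in females, and only *Gbp3* and *Ifi27* are called, in the sex difference.

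Females and males were then compared over both diets, with the time since the injection differing as well. Of 39 genes tested, 2 were called, both higher in females, *Gbp3* at 1.36 ± 0.35 (SE, adjusted p = 0.00548 by edgeR) and *Ifi27* at 1.16 ± 0.15 (SE, adjusted p = 1.59e-05 by edgeR). Among all 12665 genes 18.9% were called, and 11.9% were called higher in females. The median log2 fold change was 0.25 for the list and 0.06 for all genes, and that of the list turned to −0.08 without NP female 2 and to −0.03 without LP female 5. *Gbp3* was called in all 18 fits that left out 1 library, at 1.22 to 1.57, and so was *Ifi27*, at 1.05 to 1.25. Within LP mice *Gbp3* was not called, at 1.14, while *Ifi27* was called within each diet.

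This comparison depended on the 3 low libraries, which are all female. Without them 38 of 46 genes were called higher in females, from 0.59 to 1.84 on the log2 scale, against 11.6% of 12949 genes, and the median rose to 0.74. Leaving out the lowest females raises the female level by construction, so this count is a description. Every one of the 5 other females was above every male for 7 of 47 genes and for 902 of 15678 genes. The 7 were *Gbp2*, *Gbp3*, *Gbp5*, *Ifi27*, *Irf9*, *Rtp4*, and *Tap1*.

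Other genes of the interferon pathway, 81 in 8 lists, were read in the same libraries. Of these, 69 had a mean of at least 10 counts, and 45 of the 69 had LP female 1, LP female 2, and NP female 3 below the other 5 females. None had them above. Of all 15678 genes with such a mean, 12.4% had them below and 11% above. Of the 45, 23 came from 1 list, that of 25 further interferon-stimulated genes. For diet in males and females and for the difference of the diet effect between sexes, edgeR called 0 of 66, 0 of 61, and 0 of 61. Of all genes tested, 0.0379%, 0%, and 0.0158% were called in the same order. In the sex difference it called 2 of 61 higher and 1 lower in females. Among all 12665 genes 18.9% were called there, and 11.9% were called higher in females.

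The 10 interferon genes themselves were near 0 everywhere. Reads were found for *Ifnb1*, *Ifnk*, *Ifng*, and *Ifnl3* only, with at most 5 reads in a library, and the 10 genes together reached at most 0.363 CPM. At this depth no difference in interferon transcripts could be detected. Of the 5 receptor genes with enough reads, 3 had the 3 libraries lowest (*Ifngr1*, *Ifngr2*, *Ifnlr1*). *Ifngr2* lay at 21.5 to 28.9 CPM in them and at 43.1 to 51.9 CPM in the other 5 females, while *Ifnar1* lay at 48.04 to 50.96 and 42.6 to 59.9 CPM, so the ranges of *Ifnar1* overlapped.

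Of the 4 Janus kinases and STATs reported here, *Jak1* and *Stat3* had the same 3 libraries lowest. *Jak1* was at 66.2 to 108 CPM against 117 to 179.6 CPM in the other females, and *Stat3* at 56.8 to 66.2 CPM against 178 to 264 CPM.

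Among the nucleic acid sensors and their adaptors, 5 of 11 genes with enough reads had the 3 libraries lowest. *Rigi*, the sensor of short RNA with a triphosphate end, was at 20.3 to 25.2 CPM against 90.6 to 183 CPM, whereas its adaptor *Mavs* overlapped, at 71.6 to 96.7 and 75.1 to 103 CPM. *Irf5* was the gene called lower in females than in males, by edgeR, with a log2 fold change of −0.66 ± 0.15 (SE). Of the negative regulators, 5 of 8 had the 3 libraries lowest, among them *Adar*, which edits double-stranded RNA, at 10.5 to 22.2 against 69.01 to 119 CPM, and *Samhd1*, which breaks down nucleotides, at 24.5 to 28.8 against 67.7 to 121 CPM.

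A further 25 interferon-stimulated genes outside the list gave the same order in 23 cases. *Trim25*, a ubiquitin ligase that activates RIG-I, was at 58.1 to 77.7 CPM in the 3 libraries and at 144 to 245 CPM in the other 5 females. The 2 that did not were *Ly6e*, at 161 to 188 and 170.5 to 337 CPM, and *Lgals3bp*, which was called higher in females by edgeR at 0.59 ± 0.16 (SE). These genes were chosen with results of the same libraries known and are no independent evidence.

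MHC class I was divided. *B2m*, the light chain, was at 481 to 545 CPM in the 3 libraries and 478 to 617 CPM in the other females, and *H2-D1*, a heavy chain, was at 247 to 583 and 259 to 351 CPM, so both overlapped. *Nlrc5*, the factor that drives class I genes, was at 2.58 to 6.25 against 19.03 to 48.7 CPM. In all, 5 of 10 class I and peptide loading genes and 2 of 6 class II genes had the 3 libraries lowest. *Cd74*, the invariant chain of class II, was at 43.2 to 65.03 against 82.5 to 125 CPM, and *H2-Aa* overlapped. *H2-DMa* was called higher in females than males by edgeR at 0.74 ± 0.20 (SE).

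**Figure D5:**
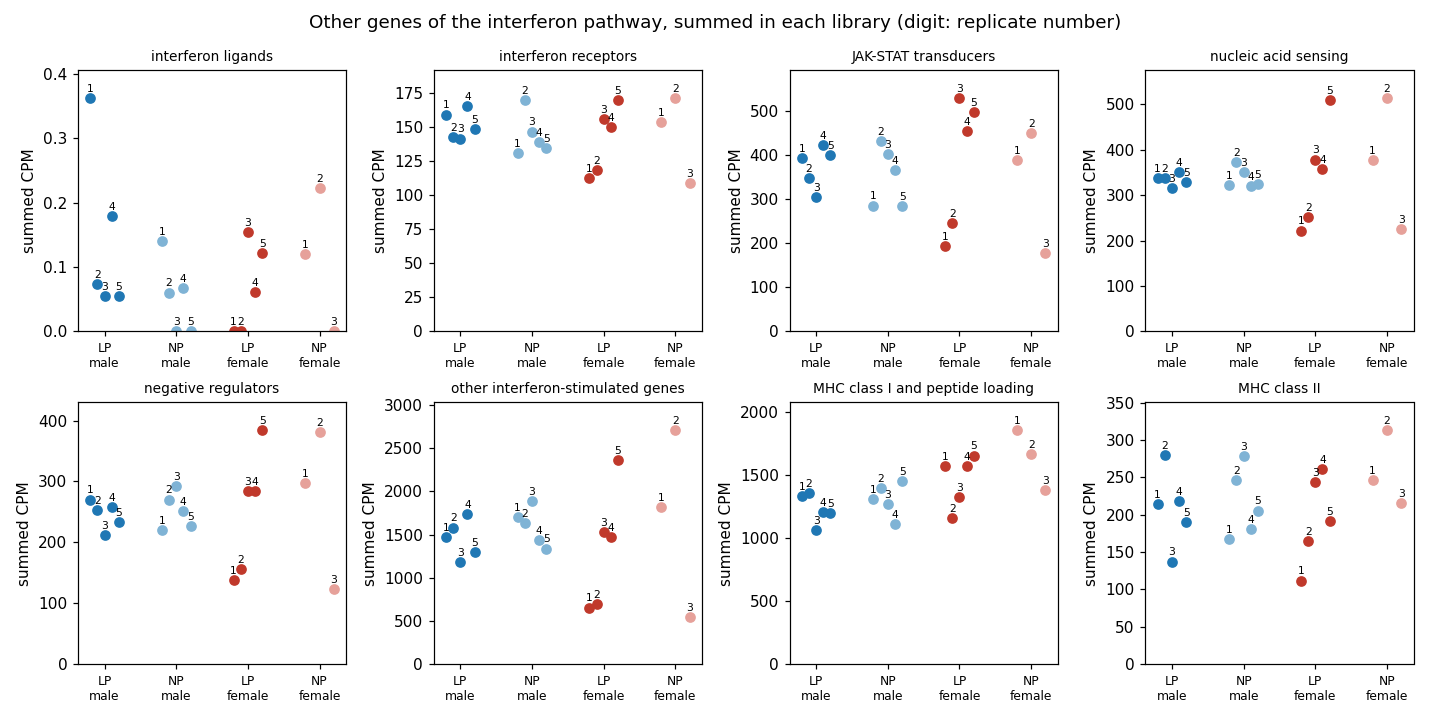
Summed CPM of 8 lists of interferon pathway genes in each library, by group, with the replicate number beside each point. The ligands stay at or under 0.363 CPM; LP female 1, LP female 2, and NP female 3 are below all other libraries for receptors, Janus kinases and STATs, sensors, negative regulators, and other interferon-stimulated genes, and overlap them for MHC class I and class II.

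Other measures moved with the 3 low libraries, and their part in these results was not tested. Reads of mitochondrial genes made up 10.4 to 16.5% of their counts and 5.47 to 8.92% in the other 15 libraries. Reads mapped to several places made up 7.92 to 12.6% in them and 5.92 to 7.78% elsewhere, and reads that fell in no gene made up 4.66 to 5.70% and 2.83 to 4.46%. Of 8 glucocorticoid-induced genes, 7 had the 3 libraries lowest among females, with a sum of 385 to 642 CPM against 1224 to 1919 CPM. Over the 15678 genes with a mean of at least 10 counts, 12.4% had that order.

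Markers of immune cells did not move in one direction. Of the 15678 genes with a mean of at least 10 counts, 12.4% were lowest and 11% highest in the 3 libraries among females. Of 10 macrophage and monocyte markers, none was lowest and 4 (*C1qa*, *C1qb*, *C1qc*, *Ccr2*) were highest in the 3 libraries, and the sum was 130.6 to 197 CPM in them, 113 to 146 CPM in the other females, and 98.5 to 158 CPM in males, with 1 of the 10 at 0 in a library. Of 6 neutrophil markers, 3 (*S100a8*, *S100a9*, *Retnlg*) were lowest, and the sum was 1.07 to 5.33 CPM against 7.87 to 26.0 CPM in the other females and 7.82 to 27.1 CPM in males, with 5 of the 6 at 0 in at least 1 library. The 10 lymphocyte and NK markers summed to 11.8 to 21.0 CPM in the 3 libraries, 9.61 to 16.8 CPM in the other females, and 7.58 to 17.5 CPM in males, with 6 of the 10 at 0 in at least 1 library. The 7 dendritic cell markers summed to 15.5 to 31.1, 25.4 to 36.2, and 14.1 to 28.9 CPM in the same order, with 2 of the 7 at 0 in at least 1 library.

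Markers of kidney cells were present in every library and moved in part with the 3 low libraries, in which 12.4% of the 15678 genes were lowest among females. The 6 proximal tubule markers summed to 6211 to 8739 CPM in them, 6790 to 11482 CPM in the other females, and 10890 to 13428 CPM in males, and 2 of the 6 were lowest in them among females. The 5 markers of the loop of Henle and distal tubule summed to 3339 to 5395 CPM in the 3 libraries, 5262 to 8134 CPM in the other females, and 2798 to 4655 CPM in males, and 1 of the 5 was lowest. For the 4 podocyte markers the sums were 216 to 319, 313 to 431, and 130.4 to 210.1 CPM in the same order, and 2 of the 4 were lowest. For the 5 collecting duct markers they were 546 to 983, 479 to 796, and 364 to 969 CPM, and 1 of the 5 was lowest. The sums of the 3 libraries overlapped those of the other females for all 4 lists.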

How the data were processed

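Poly(A) RNA of 18 kidneys was sequenced with a library that does not mark strand. The counts were used as deposited: the authors aligned trimmed reads to GRCm39 with STAR and GENCODE vM36 and counted reads per gene, and the column without regard to strand was taken. Versions were not given in the sources used here. Reads that STAR assigns to no gene were left out. Symbols and GRCm39 coordinates came from GENCODE vM39. The genes, lists, and tests were chosen with earlier results of these data known.

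CPM were scaled by TMM, and log2(CPM + 1) was used for ranges. A gene entered a test when each library of that comparison held 10 or more of its counts. Tests used edgeR 4.0.16 (quasi-likelihood test, Benjamini-Hochberg adjustment over all genes tested, R 4.3.3), within each sex for diet and over 18 libraries for sex and interaction. A gene was called at an adjusted p under 0.05 and a 1.5-fold change. DESeq2 1.42.0 and limma 3.58.1 (voom with a quality weight for each library) were alternatives. Scripts were tested on simulated data. Exact two-sided permutation tests enumerated all splits. Intervals of single counts were not computed, and depth limits genes with few reads.

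In each role group, the gene with the highest mean and the one with the widest female range were given in every library, as were genes called in a comparison. *Rsad2*, *Mx2*, *Bst2*, *Usp18*, *Isg15*, *Oas3*, *Gbp6*, *Psmb8*, *Igtp*, and other exceptions were named after their values were seen. From the other interferon lists, the 2 with the highest mean were named, together with exceptions and called genes. One signalling gene of those lists is not reported here and was left out of their sums and counts.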

Additional observations from a re-analysis of the deposited data

How the results depend on the processing

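The count of genes called for diet in females and for the interaction of diet and sex stayed at 0 under every alternative run. For diet in males it was 0 in all but 1 alternative, and without single males it ranged from 0 to 1, with *Igtp* called only without NP male 4. In the sex difference 2 genes were called and 2 in each fit without 1 library. This became 3 by limma-voom, and 1 in LP mice only, where *Gbp3* was not called, at 1.14. Without the 3 low libraries it became 38. Still without them, a filter on a mean of at least 10 counts gave 33 of 47 genes, all higher in females (chosen after seeing the data). In that fit 1636 of all 15493 genes were called higher in females. With all 18 libraries the same filter gave 2.

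The median log2 fold change of the list moved by less than the SD between libraries under every alternative, but its sign was not stable in females or across sexes. That SD was 0.22 for diet in males, 1.82 for diet in females, and 1.20 for the interaction and for sex. It is a wide limit where females take part and is not the error of a fold change. Without single libraries it ranged from −0.26 to −0.11 for diet in males, from −1.01 to 0.24 for diet in females, from −0.82 to 0.42 for the interaction, and from −0.08 to 0.48 for sex. The values above 0 for diet in females and for the interaction came without NP female 2, and the values below 0 for sex without NP female 2 or LP female 5. The interaction had a median of 0.01 by limma-voom. With the replicate number as a block (replicate block), the medians were −0.18 for males, −2.07 for females, −0.58 for the interaction, and 0.21 for sex, and the counts of called genes were 0, 0, 0, and 2, so the block changed no call. The labels tie no mice by number. Same-numbered LP and NP libraries had deviations from their group means correlated at −0.29 to 0.31 in males and −0.59 to −0.38 in females. Each female pair joins a low library with one that is not low. No pairs with different numbers stand beside these values, so they cannot decide whether a shared number marks anything.

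The median female range of 4.18 became 4.75 with 0.1 added before the logarithm and 3.22 with 5 added, since these change how low genes are read. Without single females it ranged from 3.60 to 4.18. For genes such as *Isg15* and *Oas3*, with few reads, depth limits what can be said.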
